A study of Mus musculus with 6 samples.

Results

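The genes described here encode the subunits of the transcription factor NF-kappa-B and a set of its inhibitors, measured by RNA sequencing in bone cells of mice treated with dexamethasone, a synthetic glucocorticoid. They comprised 10 genes chosen by name, of 29616 genes listed. The 5 subunits were Rela, Relb, Rel, Nfkb1 and Nfkb2. The 5 inhibitors were Nfkbia, Nfkbib, Nfkbie, Nfkbiz and Tnfaip3. A row was taken as a member where its Ensembl identifier carried one of these symbols in the GENCODE M21 mouse annotation. All 10 passed the minimum of 10 normalized counts on average over the libraries and were among the 17442 genes tested.

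NF-kappa-B works as a dimer of Rel-family subunits that binds kappa-B sequences in the promoters of inflammatory, survival and cytokine genes. In resting cells, the inhibitors of kappa-B hold the dimers in the cytoplasm. Signals from receptors of the TNF, interleukin-1 and Toll-like families activate the IKK kinase complex, which marks these inhibitors for degradation and frees the dimers, and several inhibitors are themselves targets of NF-kappa-B, which closes a negative feedback loop. In bone, the pathway is known for its part in osteoclast formation and for its opposition to osteoblast function, and glucocorticoids are widely described as restraining it.

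The study compared 3 control libraries with 3 libraries of dexamethasone-treated mice, all labelled as the C57BL/6 strain, with C57BL/6J mice named in the methods. The daily dose was 0.08 µg/g, and treatment began at 8 weeks of age and lasted 4 weeks. The labels call the material bone cells, and the methods describe Osteocalcin-positive cells taken from bones freed of marrow. Saline was the control injection named for the mouse treatments. The design text calls the libraries biological replicates but does not say whether a library held 1 mouse or several. In bulk RNA of this kind, fewer cells of a type and less RNA per cell cannot be told apart. The deposited values were read counts per gene divided by a size factor, called normalized counts below, and 1 read was worth 0.879 to 1.16 normalized counts. The libraries held between 72596611 and 89910728 reads. All 10 members had between 567 and 8844 reads in every library. Replicate libraries differed by more than sampling noise. Chi-square values per degree of freedom were 26.1 and 18.1 for dexamethasone replicate 3 against replicates 1 and 2 of its group. The other within-group pairs had values of 3.27 to 7.44. Expression was compared with limma on log2(normalized count + 1). A gene is said to rise or fall where its p-value, adjusted over all tested genes, was under 0.05, and to pass both cut-offs, or to be differentially expressed, where its log2 fold change was also 1 or more, up or down.

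Expression of the cell type markers was examined in the same libraries. The 8 osteoblast markers together had 1976430 to 2103560 normalized counts in the control libraries and 751472 to 845231 in the dexamethasone libraries. Of these, 8 of the 8 were lower and past both cut-offs, against 10.6% of all tested genes. Col1a2 was just past the fold cut-off (log2 fold change -1.05) and just under it after quantile normalization, at -0.99. Osteocalcin itself (Bglap) had a mean of 107 normalized counts in the controls and 12.2 with dexamethasone, although many of its 75-base positions are shared with near-identical copies. The leukocyte gene Ptprc had 2 to 3 reads in the control libraries and 3 to 5 in the dexamethasone libraries. Of the lymphocyte markers, Cd8a was at 3 reads or fewer in every library, Cd4 at 1 to 4 reads and Cd79a at 1 to 9 reads. The macrophage markers summed to 1466 to 1485 normalized counts in the controls and 1469 to 1659 with dexamethasone, but within this sum Cd68 and Cd14 rose past both cut-offs (log2 fold changes 1.78 and 1.21) and Lyz2 fell past them (-1.50). Csf1r also fell, by 0.67 on the log2 scale. The neutrophil markers summed to 699.6 to 729.97 and 811 to 980.2, and the endothelial markers to 363 to 398 and 429 to 475. The neutrophil sum was mostly S100a9, which did not pass the test (limma adjusted p = 0.284), and S100a8, which rose (log2 fold change 0.87). The endothelial sum was almost all Kdr, with means of 348 and 414. Kdr rose by 0.25 on the log2 scale, but not with equal library totals (limma adjusted p = 0.124). The endothelial gene Cdh5 was at 3 reads or fewer in every library. The osteoclast markers summed to 12879.5 to 13502 and 8169 to 8609.9, almost all of it Ctsk, whereas Acp5 had 0 reads in each control library and 7, 26 and 17 reads with dexamethasone, and Ocstamp had 0, 6 and 1 and then 20, 6 and 14 reads. What part the fall of the osteoblast markers, or the shifts of the other lists, had in the differences described here was not tested.

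The treatment itself was visible in known glucocorticoid targets. The normalized counts of Fkbp5, a chaperone that moderates the glucocorticoid receptor, rose from 1855 ± 37.3 (SD, n = 3) to 39489 ± 2584 (SD, n = 3), with 4.41 as the log2 fold change (limma adjusted p = 1.30e-29). Sgk1, a kinase gene induced by glucocorticoids, and Per1, a clock gene, rose with log2 fold changes of 4.25 and 1.49. Zbtb16, a transcriptional repressor, had 0 reads in each control library and 39, 42 and 39 reads in the dexamethasone libraries. The receptor gene Nr3c1 fell by 0.92 on the log2 scale, from 20137 to 10607 normalized counts, under the fold cut-off.

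Promoter sequences were taken from RefSeq (build GRCm38.p6), as windows from 250 bases before to 50 bases after each annotated start, because several of the members are known to answer to NF-kappa-B themselves. Of the 10 members, 7 were matched to 10 windows in this table. The remaining members, Nfkb1, Relb and Nfkbiz, had no entry. The kappa-B consensus, searched on both strands, was found in 8.46% of all 32851 windows of this length. It was found in 7 windows of 5 members (Rel, Nfkb2, Nfkbia, Nfkbie and Tnfaip3) and in no window of Rela or Nfkbib. A match is a run of letters and does not show that a factor was bound. A stretch around 1 match site of each of these genes is printed 5′ to 3′ on the strand of the gene, with the match in capitals, so that it can be set beside the expression of each gene.
Rel, chr11:23771007-23771106, minus strand: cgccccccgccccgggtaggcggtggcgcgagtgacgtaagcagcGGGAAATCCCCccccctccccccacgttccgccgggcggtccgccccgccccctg
Nfkb2, chr19:46304688-46304717, plus strand: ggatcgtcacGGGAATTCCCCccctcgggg
Nfkbia, chr12:55492648-55492721, minus strand: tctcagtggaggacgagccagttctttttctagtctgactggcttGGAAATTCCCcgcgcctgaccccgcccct
Nfkbie, chr17:45555549-45555648, plus strand: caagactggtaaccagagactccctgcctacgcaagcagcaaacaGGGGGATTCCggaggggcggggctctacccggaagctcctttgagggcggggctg
Tnfaip3, chr10:19015411-19015467, minus strand: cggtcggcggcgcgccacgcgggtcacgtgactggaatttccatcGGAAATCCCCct
The first base of the match lay 92 bases before the start in Rel, 39 in Nfkb2, 29 in Nfkbia, 106 in Nfkbie and 12 in Tnfaip3. In Rel and Nfkb2 the capitals hold 2 matches that share all but 1 base. Nfkb2 had a further match 11 bases before the same start, and Tnfaip3 a further match 125 bases before its start. The windows of the other starts of Nfkb2 also held matches, which are not printed. These windows overlap and have a match in common, so the windows counted are not all independent. The palindromic glucocorticoid response element, written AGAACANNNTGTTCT, was found in 3 of all 32851 windows (0.00913%) and in 0 of the members' windows. The partial site AGAACA was found in 19.0% of all windows and in 1 window of a member, at the other start of Tnfaip3.

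Members moved in both directions, and most of the movement was small. Of the 10, 4 rose and 3 fell, where 72.5% of all tested genes passed (37.2% higher and 35.2% lower). With the fold cut-off added, 2 members were differentially expressed, Nfkbiz higher and Rel lower, where 11.7% of all tested genes passed as higher and 10.6% as lower. The 3 control and 3 dexamethasone values did not overlap for 7 of the 10, against 74.7% of all tested genes. The median log2 fold change was -0.0012 for the members and 0.00071 for all tested genes. These shares were near those of all genes, so that the counts say nothing particular about the family.

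**Figure D1:**
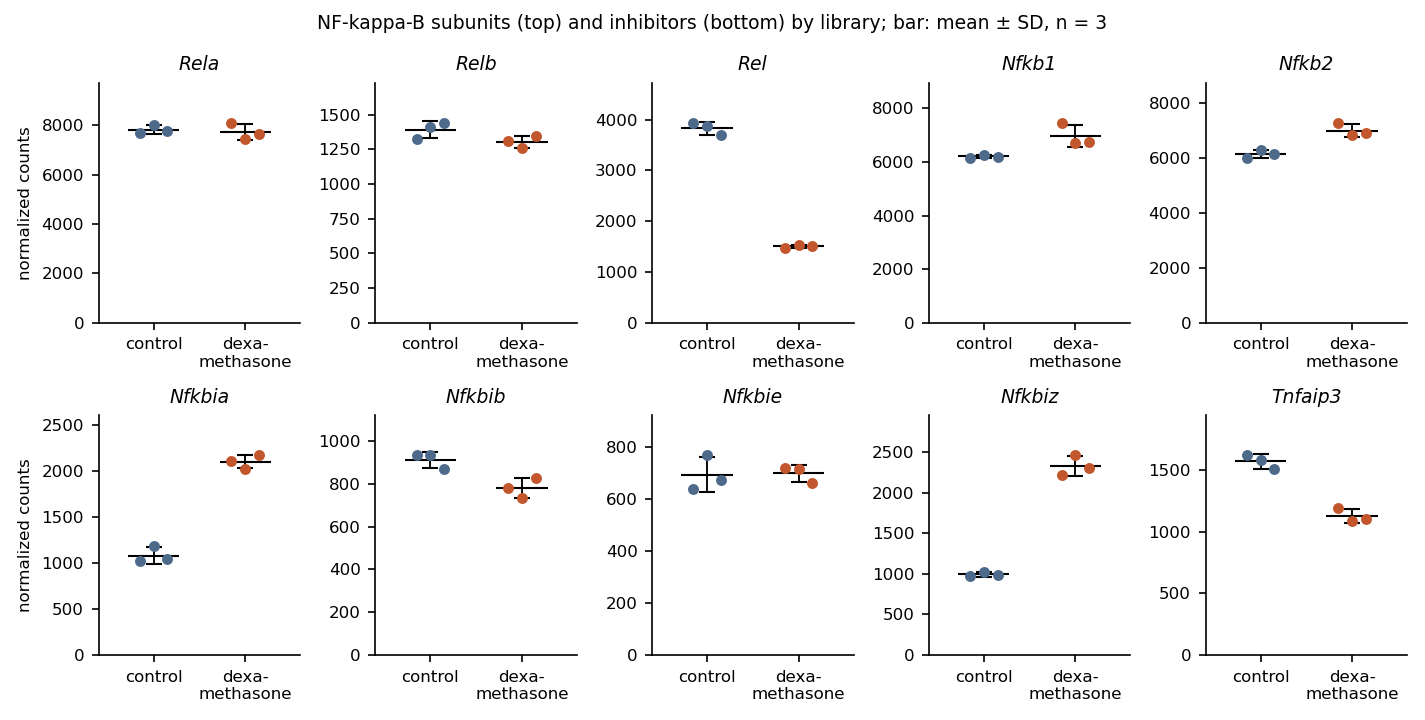
Normalized counts (y axis, from 0, own scale per gene) of the 5 subunits (top row) and 5 inhibitors (bottom row) in 3 control libraries (blue) and 3 dexamethasone libraries (orange), with the mean as a line and the SD as a bar. Rel stands at 3689.9 to 3932 in the controls and at 1475 to 1523 with dexamethasone, whereas Nfkbia and Nfkbiz lie higher in every dexamethasone library.

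Among the subunits, Rel showed the largest difference. Rel encodes c-Rel, a subunit with its own transactivation domain that is best known from lymphocytes. Its normalized counts were 3932, 3866 and 3689.9 in the control libraries (replicates 1, 2 and 3, the order kept for every gene below) and 1475, 1523 and 1519.8 in the dexamethasone libraries. Every dexamethasone value was far under every control value, and the spread within either group was narrow. Rel fell from 3829 ± 125 (SD, n = 3) to 1506 ± 26.9 (SD, n = 3), which is 2.54-fold lower. The log2 fold change was -1.35 (95% confidence interval -1.43 to -1.26, limma adjusted p = 2.23e-19), and 6.48% of all tested genes had a lower one. Rel passed both cut-offs in 16 of the 16 alternative settings, with log2 fold changes of -1.50 to -1.33. The lymphocyte markers Cd4, Cd8a and Cd79a were near 0 in all libraries. Cd79a, the highest of them, had 9, 5 and 7 reads in the controls and 1, 3 and 5 with dexamethasone, and the groups overlapped. What part such cells had in the level of Rel was not tested.

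Rela encodes p65, the transactivating partner of the most common dimer. It had 7687, 8034 and 7772 normalized counts in the controls and 8099.5, 7463 and 7669.7 with dexamethasone. The values of the groups overlapped. The log2 fold change was -0.02 (95% confidence interval -0.09 to 0.06, limma adjusted p = 0.702). Relb, the transactivating partner in the non-canonical pathway, had 1324, 1414 and 1441 normalized counts in the controls and 1314, 1260.1 and 1344 with dexamethasone. These groups overlapped as well, and the log2 fold change of -0.09 (95% confidence interval -0.20 to 0.01) did not pass the test (limma adjusted p = 0.109). The place of both intervals depends on how the libraries are scaled. With all libraries rescaled to the same total, the median log2 fold change of all tested genes moved to -0.11, that of Rela to -0.13 (limma adjusted p = 0.000321) and that of Relb to -0.21 (limma adjusted p = 0.000384).

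Nfkb1 and Nfkb2 encode the precursors of the DNA-binding partners that lack a transactivation domain. Nfkb1 had 6156, 6269 and 6203 normalized counts in the controls and 7456, 6712 and 6744 with dexamethasone. Nfkb2 had 5984, 6305 and 6144 in the controls and 7272, 6825 and 6888 with dexamethasone. For both genes the lowest dexamethasone value was above the highest control value, and dexamethasone replicate 1 was the highest of the 6. Nfkb1 rose with a log2 fold change of 0.17 (95% confidence interval 0.08 to 0.25, limma adjusted p = 0.000708) and Nfkb2 with one of 0.19 (95% confidence interval 0.11 to 0.26, limma adjusted p = 8.79e-05), both far under the fold cut-off. The direction of both rests on the scaling. After quantile normalization the log2 fold changes were -0.04 for Nfkb1 and -0.01 for Nfkb2, with a median of -0.08 over all tested genes, and neither passed the test. In the annotation, 18.1% of the exon bases of Nfkb2 are covered by genes on the opposite strand, and the strand setting of the count is not given in the sources used here. Of these genes, Psd had a mean of 1713 normalized counts in the controls and 1728 with dexamethasone, and AC114539.1 fell from 241 to 173 (log2 fold change -0.47, limma adjusted p = 0.000936). Their part in the count of Nfkb2 was not tested.

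Added up, the 5 subunits had 25082 to 25887 normalized counts in the control libraries and 23783 to 25616 in the dexamethasone libraries, and the groups overlapped. The ratio of Rel to Rela, chosen after the values were seen, was 0.512, 0.481 and 0.475 in the controls and 0.182, 0.204 and 0.198 with dexamethasone. A ratio within a library does not depend on the scaling between libraries. The ratio of Nfkb2 to Nfkb1 was 0.972 to 1.01 in the controls and 0.975 to 1.02 with dexamethasone, and the groups overlapped.

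Nfkbia, which encodes the main cytoplasmic inhibitor and is a classical target of NF-kappa-B, had 1017, 1182 and 1042 normalized counts in the controls and 2109, 2023 and 2171 with dexamethasone. The lowest dexamethasone value was well above the highest control value. The mean rose from 1080.5 ± 88.8 (SD, n = 3) to 2101 ± 74.2 (SD, n = 3), which is 1.94-fold higher. The log2 fold change, 0.96 (95% confidence interval 0.85 to 1.07, limma adjusted p = 5.26e-14), stood just under the cut-off of 1. It passed the cut-off in 1 of 16 alternative settings, at 1.03 without control replicate 2, and the lowest value was 0.85 with the libraries at the same total. Of all tested genes, 87.8% had a lower log2 fold change.

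Nfkbiz encodes an atypical nuclear member of the inhibitor family that acts as a cofactor at selected target genes such as those of the acute phase. It had 968, 1025 and 982 normalized counts in the controls and 2211, 2460.2 and 2302 with dexamethasone. The groups were far apart relative to the spread within them. Nfkbiz rose 2.34-fold, from 992 ± 30.04 (SD, n = 3) to 2325 ± 126 (SD, n = 3). The log2 fold change was 1.23 (95% confidence interval 1.12 to 1.33, limma adjusted p = 5.85e-17), and it stayed between 1.11 and 1.26 and past both cut-offs in all 16 alternative settings.

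Tnfaip3 encodes a ubiquitin-editing enzyme that ends signalling upstream of the IKK complex, and like Nfkbia it is a classical feedback target. It moved the other way. It had 1621, 1585 and 1507 normalized counts in the controls and 1189.5, 1090.03 and 1099.99 with dexamethasone, and the groups did not overlap. Tnfaip3 fell 1.39-fold, from 1571 ± 58.4 (SD, n = 3) to 1127 ± 54.8 (SD, n = 3), its log2 fold change being -0.48 (95% confidence interval -0.59 to -0.37, limma adjusted p = 1.04e-08). This passed the test in 16 of 16 alternative settings but in none of them the fold cut-off. The windows printed above of Nfkbia, which rose, and of Tnfaip3, which fell, both hold the letters of the kappa-B consensus.

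The other inhibitors changed little. Nfkbib, another cytoplasmic inhibitor, had 934, 933 and 869 normalized counts in the controls and 778, 736 and 829 with dexamethasone, without overlap. It fell 1.17-fold, with a log2 fold change of -0.22 (95% confidence interval -0.35 to -0.10, limma adjusted p = 0.00217). Genes on the opposite strand cover 16.4% of its exon bases. One of them, Sirt2, fell in the same libraries from 6426 to 4660 normalized counts on average (log2 fold change -0.46, limma adjusted p = 7.63e-10), and what part it had in the count of Nfkbib was not tested. Nfkbie, an inhibitor found mainly with dimers that hold Rela or Rel, had 639, 767 and 670 normalized counts in the controls and 719, 714 and 659 with dexamethasone. The groups overlapped, and the log2 fold change of 0.01 (95% confidence interval -0.13 to 0.16, limma adjusted p = 0.866) changed sign with the setting.

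Added up, the 5 inhibitors had 5071 to 5492 normalized counts in the control libraries and 7007 to 7062 in the dexamethasone libraries, without overlap. In this sum, which is not scaled by gene length, only Nfkbia and Nfkbiz rose, while Tnfaip3 and Nfkbib fell. The ratio of Nfkbia to Rela was 0.132, 0.147 and 0.134 in the controls and 0.260, 0.271 and 0.283 with dexamethasone, which is 1.97 times as high on average. Another pair of ratios was chosen after the values were seen. Tnfaip3 to Nfkbia was 1.59, 1.34 and 1.45 in the controls and 0.564, 0.539 and 0.507 with dexamethasone. Nfkbiz to Nfkbia was 0.951, 0.868 and 0.943 in the controls and 1.05, 1.22 and 1.06 with dexamethasone. Within the same libraries, the inhibitors therefore changed unequally with respect to each other.

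**Figure D2:**
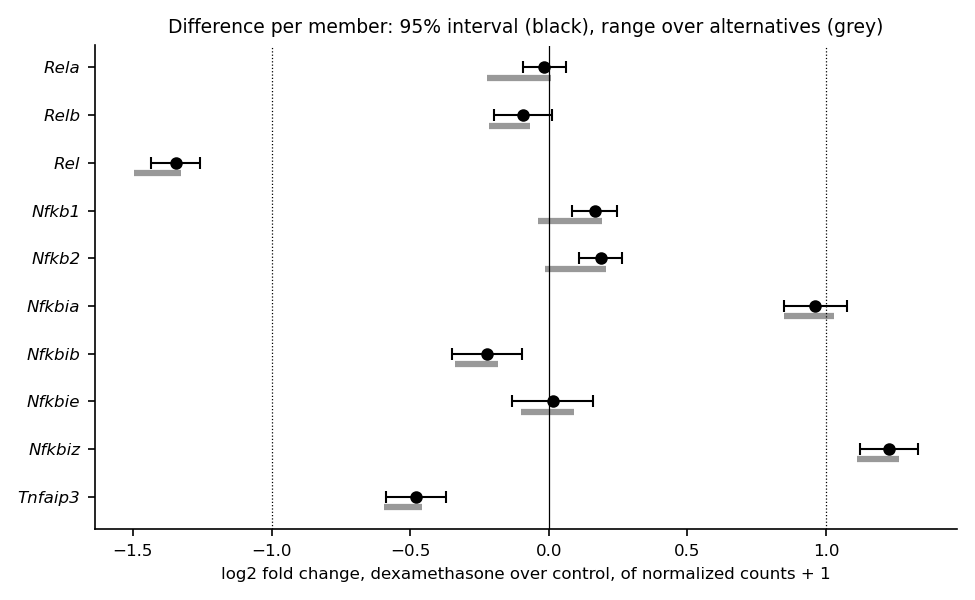
Log2 fold change of each member, dexamethasone over control (x axis), with its 95% confidence interval in black and, as a grey bar, the range over 16 alternative settings; dotted lines mark the cut-off of 1. Rel and Nfkbiz lie past the cut-off with their whole range, Nfkbia straddles it, and the ranges of Rela, Nfkb1, Nfkb2 and Nfkbie cross 0.

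Levels of different genes were compared as normalized counts per kilobase of the longest coding transcript in GENCODE M21. In the control libraries the order was Rela, Nfkb2, Nfkb1, Nfkbia, Relb, Rel, Nfkbib, Tnfaip3, Nfkbie and Nfkbiz. Rela stood highest at 2830 to 2958 per kilobase and Nfkbiz lowest at 235 to 249. The only neighbours in this order whose libraries overlapped were Nfkbia, at 645 to 749, and Relb, at 599 to 652. With dexamethasone, Rel moved from place 6 to place 10, at a mean of 202 per kilobase, and Nfkbiz from place 10 to place 6, at a mean of 565. In that group the libraries of Nfkb2 and Nfkb1 overlapped, and those of Relb and Nfkbiz. The level of Nfkbia rose from a mean of 685 to 1331 per kilobase and kept place 4. The places depend on the gene model. By the union of all annotated exons, which includes longer isoforms, Nfkbia took place 3 and Nfkb1 place 4 in both groups, Rel moved from place 5 to place 9, Nfkbiz from place 10 to place 5, and Tnfaip3 was lowest with dexamethasone, at a mean of 156 per kilobase.

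**Figure D3:**
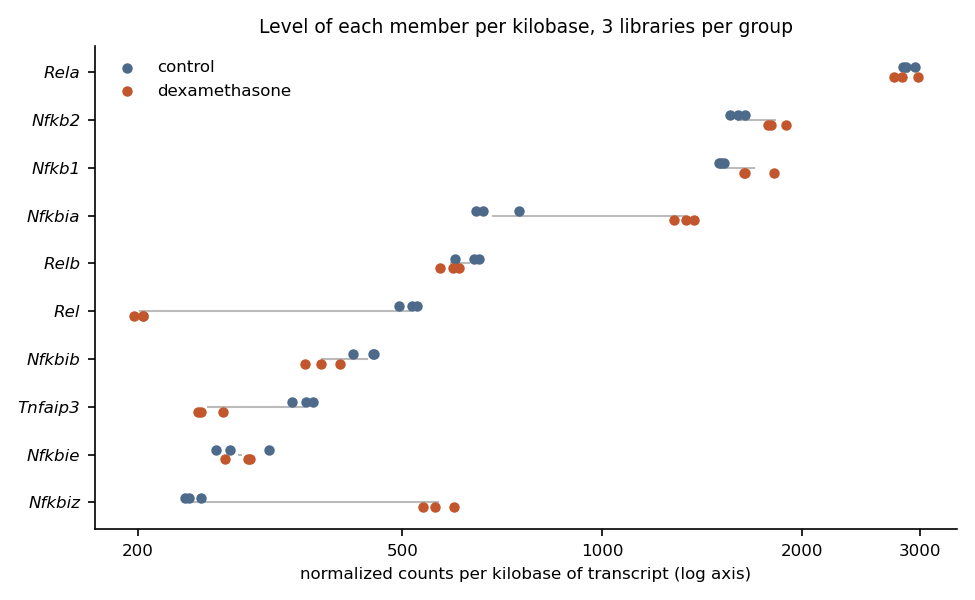
Normalized counts per kilobase of the longest coding transcript (x axis, log scale) of each member in 3 control libraries (blue) and 3 dexamethasone libraries (orange), ordered by the control mean; grey lines join the means. By this gene model Rel goes from a mean of 513 to the lowest place at 202, and Nfkbiz from the lowest place at 241 to 565.

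The remaining genes of the pathway were described from lists by role, by their counts and medians and without a test over a list. Of 95 listed genes outside the members, the glucocorticoid targets included, 87 were in the table and 73 were tested, of which 35 rose and 24 fell at a limma adjusted p-value under 0.05. Past the fold cut-off as well were 15 higher, 4 of them from the list of glucocorticoid targets, and 5 lower. The median log2 fold change of the 73 was 0.13. Of all tested genes, 37.2% rose and 35.2% fell, with a median of 0.00071. Past both cut-offs were 11.7% as higher and 10.6% as lower. These shares serve as the background of each list below.

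Upstream, several receptors rose. Of 11 listed receptors, 9 were tested, 5 rose and 3 fell, and 4 rose past the fold cut-off, with a median of 0.62. Over all tested genes, 37.2% rose, 35.2% fell and 11.7% rose past the fold cut-off. Il1rap, the shared accessory chain of interleukin-1 family receptors, had 575, 558 and 562 normalized counts in the controls and 4068, 3982 and 3936 with dexamethasone (log2 fold change 2.82, limma adjusted p = 4.20e-25). Il1r1, the signalling receptor of interleukin-1, rose from 2695 ± 36.5 (SD, n = 3) to 7792 ± 119 (SD, n = 3), a log2 fold change of 1.53. Of the TNF receptors, Tnfrsf1b rose from 2029 ± 95.5 (SD, n = 3) to 5385 ± 316 (SD, n = 3), a log2 fold change of 1.41, whereas Tnfrsf1a had means of 17684 and 18380 and did not pass the test (log2 fold change 0.06, limma adjusted p = 0.185). Tnfrsf12a, the receptor of TWEAK, rose from 5493 to 19501 normalized counts (log2 fold change 1.83), and Ltbr, the lymphotoxin beta receptor, fell by 0.34 on the log2 scale. Among the Toll-like receptors, Tlr2 fell from 1437 to 742 normalized counts on average, a log2 fold change of -0.95. With equal library totals it was past the fold cut-off, at -1.07. Tlr3 fell by 0.25 on the log2 scale, whereas Tlr4 rose by 0.62. Cd40 was not analysed here.

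Several ligands were at or near 0. Tnf had 1 read in each control library and 0, 1 and 1 reads with dexamethasone, and Il1b had 0, 2 and 4 reads in the controls and 3, 5 and 5 with dexamethasone. A difference in either was not detectable at this depth. Of 9 ligands in the table, 4 had enough reads to be tested, and 1 rose. Il33, an alarmin of the interleukin-1 family, had 2, 4 and 5 reads in the controls and 28, 23 and 40 with dexamethasone, and passed both cut-offs. Il18, Tnfsf12 and Tnfsf13b did not pass the test, with log2 fold changes of -0.17, -0.11 and -0.14. In the annotation a gene on the same strand covers 48.3% of the exon bases of Tnfsf12.

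Most genes of the IKK complex and its upstream kinases shifted by small amounts. Of 10 tested, 8 rose, 1 fell and none passed the fold cut-off, with a median log2 fold change of 0.19. Over all tested genes, 37.2% rose and 35.2% fell. Chuk and Ikbkg, a catalytic and the regulatory subunit of the complex, rose by 0.15 and 0.21 on the log2 scale, and Map3k7, the kinase that activates it, by 0.31. The largest rise was that of Ikbke, from 1089 to 1672 normalized counts (log2 fold change 0.62, limma adjusted p = 7.93e-11). After quantile normalization the log2 fold change of Ikbke was 0.50. After quantile normalization 3 rather than 8 still passed as higher, Ikbke, Map3k7 and Tab3, and the log2 fold changes of Chuk and Ikbkg were -0.04 and 0.01. Tab2, an adaptor of Map3k7, fell from 16643 to 11255 normalized counts (log2 fold change -0.57, limma adjusted p = 9.00e-13).

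The adaptors and ubiquitin ligases went both ways, with 4 of 16 tested genes higher, 6 lower and a median of -0.03. Of the interleukin-1 receptor-associated kinases, Irak1 and Irak2 moved in opposite directions. The normalized counts of Irak1 rose from 6652 ± 129 (SD, n = 3) to 11240 ± 465 (SD, n = 3), with 0.76 as the log2 fold change. Irak2 had 2086, 2275 and 2120 normalized counts in the controls and 1048, 1013 and 999.99 with dexamethasone, without overlap, and fell past both cut-offs (log2 fold change -1.08, limma adjusted p = 5.30e-16). Ripk1, the kinase of the TNF receptor complex, rose with a log2 fold change of 0.44, Rbck1, a subunit of the linear ubiquitin ligase, fell by 0.16 on the log2 scale, and Traf3 did not pass the test (log2 fold change 0.03).

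Among the other brakes, 5 of 11 tested genes rose and 6 fell, with a median of -0.11. Tsc22d3, which encodes the glucocorticoid-induced leucine zipper known to bind NF-kappa-B, had 5341, 5653 and 5600.4 normalized counts in the controls and 17349.5, 17632 and 17186 with dexamethasone. It was the only tested brake past both cut-offs (log2 fold change 1.65, limma adjusted p = 6.70e-23). Otud7b, a deubiquitinase related to Tnfaip3, rose with a log2 fold change of 0.41. Tax1bp1 and Rnf11, which act in one complex with Tnfaip3, fell by 0.11 and 0.19 on the log2 scale. Of the other proteins of the inhibitor family, Bcl3 had means of 87.8 and 87.6 normalized counts (log2 fold change -0.00055, limma adjusted p = 0.998), and Nfkbid was at 3 reads or fewer in every library.

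The listed target genes of NF-kappa-B did not move as a block. Of 28 listed, 17 were tested, 8 rose and 7 fell, and past the fold cut-off 5 were higher and 4 lower, with a median of 0.13. Over all tested genes, 11.7% were past both cut-offs as higher and 10.6% as lower. Lcn2, an iron-binding acute phase protein, had 59.7, 53.8 and 43.9 normalized counts in the controls and 1551, 1433 and 1598 with dexamethasone (log2 fold change 4.85, limma adjusted p = 8.38e-23). Ccl2, a monocyte chemokine, rose from 149 ± 10.9 (SD, n = 3) to 679.8 ± 38.8 (SD, n = 3), a log2 fold change of 2.19. The complement gene C3 and the survival gene Bcl2l1 rose with log2 fold changes of 2.64 and 1.80, and Csf1, the macrophage growth factor, with one of 0.38, under the cut-off. Sele, an endothelial adhesion gene, had 1, 2 and 2 reads in the controls and 29, 21 and 22 with dexamethasone.

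The target genes that fell past the cut-off included the adhesion gene Vcam1, which had 14910.2, 16229.5 and 15024 normalized counts in the controls and 7726, 7625 and 7695 with dexamethasone. The mean went from 15388 to 7682 (limma adjusted p = 6.36e-18), just past the cut-off, and with 1 library left out the log2 fold change was -0.96 at its smallest, under the cut-off. Plau, a plasminogen activator, and Gadd45b, a stress response gene, had log2 fold changes of -1.16 and -1.10. Mmp9, a matrix protease, had 22, 20 and 25 reads in the controls and 13, 5 and 8 with dexamethasone, and its log2 fold change of -1.16 ranged from -1.40 to -0.88 with 1 library left out. Sod2, a mitochondrial antioxidant enzyme, fell by 0.21 on the log2 scale, and 83.8% of its 75-base positions are unique to it. Cxcl1, Cxcl5, Ccl20, Csf2 and Bcl2a1b were not analysed here.

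**Figure D4:**
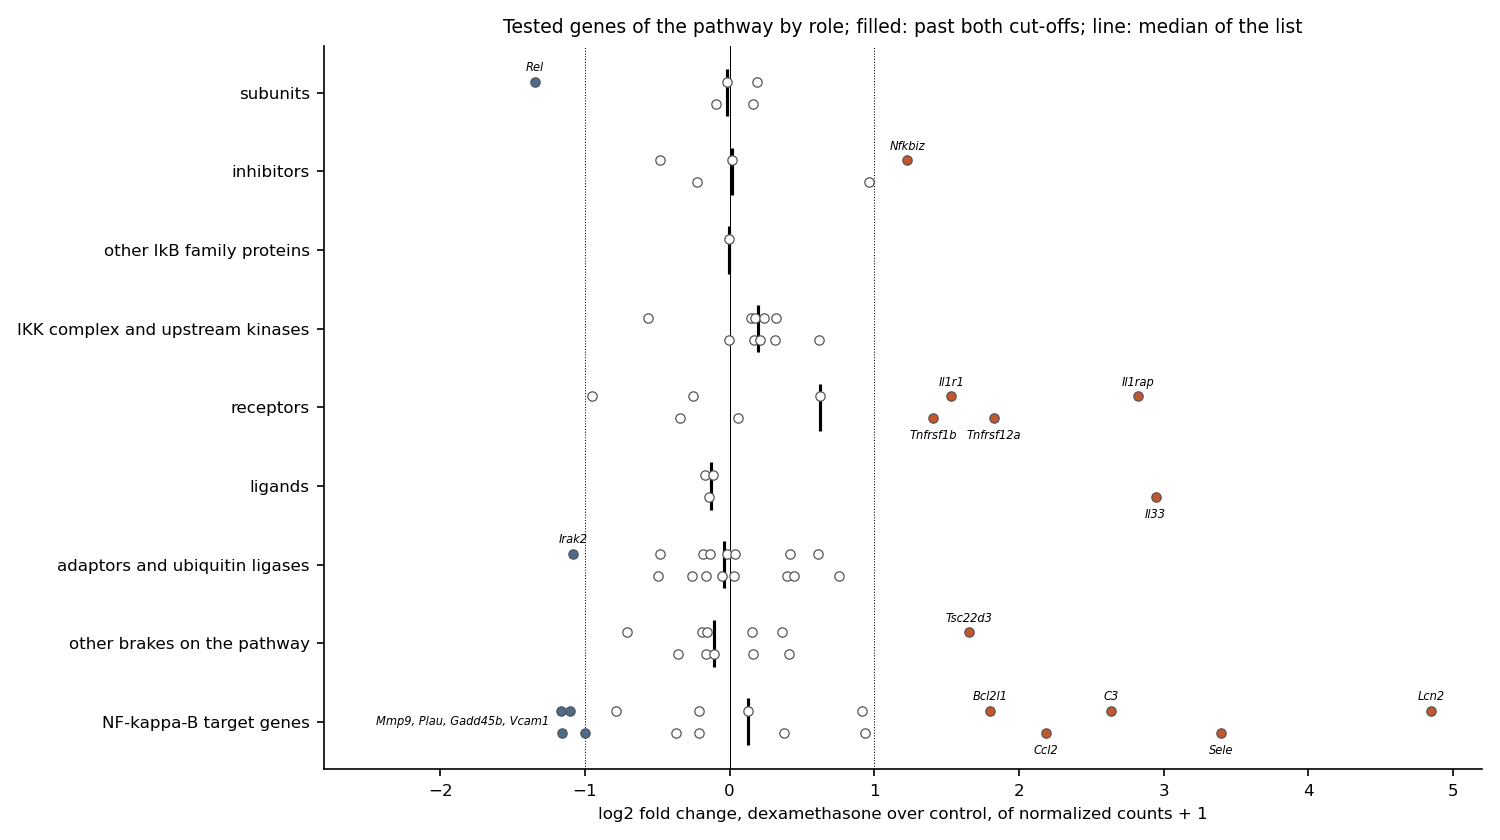
Log2 fold change, dexamethasone over control (x axis), of each tested gene by role in the pathway (rows); filled points passed both cut-offs (orange higher, blue lower) and are named, and a thick line marks the median of each list. The list of glucocorticoid targets is not plotted. Of the lists plotted, the receptors have the highest median, 0.62, and the target genes spread from -1.16 to 4.85. Sele and Il33 had 5 or fewer reads per control library, so that the place of their points depends on the added 1.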

How the data were processed

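Total RNA of 3 control and 3 dexamethasone samples was made into libraries with the KAPA Stranded mRNA-Seq Kit and sequenced on an Illumina NovaSeq. The authors aligned and counted reads per gene with STAR 2.7.10a and normalized them with DESeq2 1.36.0. Build GRCm39 is named in the submitters' processing notes. The annotation release and the strand setting are not given in the sources used here. The deposited signal is normalized counts, and dividing by the value of 1 read recovered whole reads for 100% of values (tolerance 0.001). All columns were mapped to samples.

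Symbols (28087 of 29616 genes), transcript lengths and overlaps came from GENCODE M21 (GRCm38). Normalized counts were log2-transformed after adding 1, which understates the change of low genes. Genes with a mean of at least 10 were tested with limma 3.58.1 (R 4.3.3, empirical Bayes with trend, Benjamini-Hochberg adjustment), after a check on simulated data. The changed genes in the simulation were few and all far past the fold cut-off, so the check does not bear on small differences. edgeR 4.0.16 and DESeq2 1.42.0 on recovered reads, other pseudocounts, filters and scalings, a replicate block and leaving out each library were alternatives. Cut-offs followed the study's methods. The members and gene lists were chosen with earlier results of these data known, and 1 marker gene is not reported here. All members were named, and of each pathway list the 4 tested genes with the highest mean and every gene past both cut-offs. In the treatment list, genes past the cut-offs are also given, among the receptors the tested Toll-like ones, and among the kinases Ikbke and Tab3. Same-numbered libraries did not deviate together (r of -0.105 to -0.0199 across genes), so the numbers were not taken as pairs. P-values measure the spread between these libraries, moderated by that of other genes of similar level. Their size depends on this. Without the trend, the limma adjusted p-value was 4.57e-06 rather than 2.23e-19 for Rel and 0.00012 rather than 5.26e-14 for Nfkbia. In that setting 7 members still passed the test. An exact permutation test of 3 against 3 cannot give a p-value below 0.1.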

Additional observations from a re-analysis of the deposited data

How the results depend on the processing

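Of all tested genes, 3894 were differentially expressed, and between 3878 and 3910 with 1 library left out in turn. The number was 12645 without the fold cut-off and 2170 with a mean of at least 100. edgeR gave 3944, DESeq2 3870 and the fit with the replicate block 3897. Same-numbered libraries did not deviate together and nothing in the labels ties them, so they were not treated as pairs, and the block changed no call among the members. Of the 10 members, 7 rather than 2 were called without the fold cut-off. The number of other brakes past the cut-offs went from 1 to 2 with no filter on low values, and that of ligands from 1 to 0 at a mean of at least 100, where fewer genes are tested.

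The log2 fold change of Nfkbie (0.01) turned to -0.0997 with equal library totals, -0.0453 with quantile normalization and -0.0119 in edgeR, and ranged from -0.0412 to 0.0905 with 1 library left out. That of Nfkb1 (0.17) was -0.0392 and that of Nfkb2 (0.19) -0.0134 after quantile normalization, and that of Rela (-0.02) ranged from -0.0494 to 0.0096 with 1 library left out. The cause was not tested. None of these reversed values passed the test, whereas Rela and Relb passed it as lower with equal library totals and with quantile normalization, and Relb also in edgeR and without control replicate 1. Rel, Nfkbiz, Nfkbia, Tnfaip3 and Nfkbib kept their direction and an adjusted p-value under 0.05 in all 16 alternatives. The small differences of Nfkb1 and Nfkb2 passed the test in 14 and 15 of the 16 alternatives. The exceptions were scalings, quantile normalization for both genes and equal library totals for Nfkb1, so these differences depend on the scaling. Depth limited the ligands, of which Tnf had at most 1 read per library, and not the members, which had at least 567.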

Other observations

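Several pathway genes with too few reads for the test, chosen after their values were seen, had dexamethasone libraries that did not overlap the controls. Sigirr, a receptor that damps interleukin-1 signalling, was read 3, 1 and 1 times in the controls and 22, 16 and 10 times with dexamethasone. Saa3, an acute phase gene, had 3, 3 and 1 reads in the controls and 13, 14 and 16 with dexamethasone. Icam1, an adhesion gene, had 6, 4 and 7 reads in the controls and 13, 15 and 11 with dexamethasone. In the other direction, Nos2, which encodes the inducible nitric oxide synthase, had 8, 11 and 13 reads in the controls and 4, 1 and 2 with dexamethasone. Ccl5, a T cell chemokine, had 10, 4 and 9 reads in the controls and 1, 0 and 3 with dexamethasone. These genes were under the minimum mean of 10 normalized counts and were not in the comparison of the report, and with so few reads their counting error is large. With no minimum, 13 rather than 9 target genes and 2 rather than 1 of the other brakes passed both cut-offs.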
